A study of Mus musculus with 32 samples.

Results

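Cyclophilin D, the product of Ppif, and 9 genes that remove, fuse or divide mitochondria were followed in quadriceps muscle of mice with and without collagen VI. The genes were chosen by name: Ppif, the mitophagy receptor genes Bnip3, Bnip3l and Fundc1, the kinase gene Pink1, the fusion genes Opa1, Mfn1 and Mfn2, and the fission genes Dnm1l and Fis1. All 10 were found among the 53801 gene IDs of the deposited tables, and all 10 were among the 12817 genes that reached 1 TPM (a transcript level scaled for length and to the same sum in every library) in at least 4 libraries. In the fit as reported, muscle of 5-week-old Col6a2-/- mice had less Pink1 RNA than wild-type (WT) muscle. There no other of the 10 genes differed between genotypes at either age past an adjusted p of 0.05. The Pink1 call was lost in 8 of 32 fits that left out 1 library and kept under 6 of 8 other settings. Median-of-ratios and quantile scaling also called Bnip3 and Bnip3l lower at 5 weeks. At 25 weeks median-of-ratios scaling called Pink1 and Bnip3l lower. Pink1 and Bnip3 rose from 5 to 25 weeks of age in both genotypes.

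Mitochondria in muscle are kept working by removal of damaged organelles and by their fusion and division. PINK1 builds up on depolarised mitochondria and recruits the ubiquitin ligase Parkin, whereas BNIP3, NIX (the product of Bnip3l) and FUNDC1 sit in the outer membrane and bind the autophagy proteins directly. Cyclophilin D is a matrix peptidyl-prolyl isomerase that sensitises the permeability transition pore to calcium, and latent opening of this pore is a known feature of collagen VI-deficient muscle fibres.

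The mice were WT or homozygous for the tm1(KOMP)Vlcg allele of Col6a2, the gene of one of the chains that assemble into collagen VI around muscle fibres. Per the labels, the allele came on C57BL/6N, was crossed for 5 generations to C57BL/6J, and WT and Col6a2-/- animals were bred from heterozygous parents, so the knockout is present in every cell. Each genotype was sampled at 5 and 25 weeks of age in females and males, with 4 mice in each of the 8 groups and 32 libraries in all. RNA came from 10 µm cryosections of whole quadriceps, so fewer cells of a type and less RNA per cell cannot be told apart.

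Col6a2 was at most 0.171 TPM in the 16 Col6a2-/- libraries and ran from 6.60 to 51.2 TPM in WT. The difference was -4.98 on the log2(TPM + 1) scale at 5 weeks and -3.47 at 25 weeks, with a two-sided exact permutation p of 0.000155 at each age, the smallest that 8 against 8 can give. The 17 fibre markers summed to between 28524 and 46530 TPM in these muscle libraries. Depth inferred from the coverage and FPKM columns was 6.78 to 13.7 gigabases per library, which is more than the MiSeq platform named in the labels usually yields, so these values rank libraries and are not taken as their true size. Between 10399 and 12877 genes reached 1 TPM. Genes of the mitochondrial chromosome took 31.9 to 46.9% of TPM and genes whose names start with Rn7s 20.8 to 30.5%, which leaves 28.4 to 44.2% for all other genes. These are the genes left out wherever values were rescaled without mitochondrial and Rn7s genes, and nuclear genes of mitochondrial proteins were kept. Replicates 2 and 4 of the 5-week Col6a2-/- females stood apart on the first principal component (35.1% of the variance), at 58.6 and -9.68 against 29.4 and 19.3 for their group mates. Counts of members and of the lists named below that rest on that group are given with and without both.

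Pink1 was the most abundant of the 10 genes, with a median of 102.6 TPM over 32 libraries, followed by Bnip3 with 71.7 TPM. Mfn2 had 44.4 TPM, Fis1 33.4, Mfn1 24.7, Opa1 19.3 and Dnm1l 17.0 TPM. Fundc1 had 12.5 TPM, Bnip3l 11.7 and Ppif 8.33 TPM, the lowest. Neighbours in this order were mostly separated within libraries: Pink1 exceeded Bnip3 in 32 of 32, Bnip3 exceeded Mfn2 in 31 and Mfn2 exceeded Fis1 in 30. Fundc1 exceeded Bnip3l in 22 of 32 libraries, the least regular step in the order. The authors' coverage column gave a mean read depth of 13.8 or more over each of the 10 genes in every library, lowest for Ppif and highest, at up to 975.1, for Pink1.

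On GRCm38, Pink1 (ENSMUSG00000028756) lies at chr4:138313409-138326307 on the minus strand and Bnip3 (ENSMUSG00000078566) at chr7:138890836-138909519 on the minus strand. Ppif (ENSMUSG00000021868) lies at chr14:25694154-25700468 on the plus strand. Mfn1 (ENSMUSG00000027668) lies at chr3:32529465-32579239 on the plus strand, and Dnm1l (ENSMUSG00000022789) at chr16:16312230-16358959 on the minus strand. Fundc1 is the X-linked member. All 10 had the same start and end in the GENCODE M21 annotation. Antisense genes overlap exons of Ppif, Bnip3 and Dnm1l, and none of them exceeded 0.171 TPM in any library. A processed pseudogene, Bnip3l-ps at chr12:18216542-18217673, was listed at 2.40 to 3.95 TPM, and since reads of a near copy can be divided between both loci, the level of Bnip3l is uncertain.

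Pink1 and Bnip3 are the members that moved with age in both genotypes, and their promoters are shown for that reason: the 250 bases before the RefSeq start site on GRCm38.p6, chr4:138326297-138326546 (minus strand) for Pink1 and chr7:138909507-138909756 (minus strand) for Bnip3. Capitals mark hypoxia response core motifs, ACGTG or GCGTG on either strand.
Pink1: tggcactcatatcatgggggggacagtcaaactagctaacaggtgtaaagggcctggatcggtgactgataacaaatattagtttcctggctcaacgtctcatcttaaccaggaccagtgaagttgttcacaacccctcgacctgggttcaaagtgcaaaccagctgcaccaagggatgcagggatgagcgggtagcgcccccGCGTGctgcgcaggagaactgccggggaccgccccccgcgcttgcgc
Bnip3: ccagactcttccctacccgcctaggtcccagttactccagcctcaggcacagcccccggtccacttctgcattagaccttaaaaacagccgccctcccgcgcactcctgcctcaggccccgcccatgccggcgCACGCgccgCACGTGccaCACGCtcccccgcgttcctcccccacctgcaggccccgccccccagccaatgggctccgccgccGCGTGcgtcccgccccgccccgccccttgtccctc

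The Bnip3 window held 5 matches, among them a palindromic CACGTG that counts on both strands, and the Pink1 window held 1, the nearest to the start being 35 bases before it in Bnip3 and 47 in Pink1. Of 32851 promoter windows of the same length in the RefSeq table, 38.6% held at least 1 match to either motif and 1.01% held 5 or more. The same motifs matched in at least 1 window of 5 of the 9 genes with a RefSeq window, the others being Ppif with 2 matches, Mfn2 with 1 or 2 in each of its 3 windows and Dnm1l with 1 match in 1 of 2 windows. That is a count of genes, some with several windows, and the 38.6% is a share of windows, so they are unlike measures. GC content was 72.4% for Bnip3 and 57.2% for Pink1. RefSeq windows were found for 9 of the 10 genes. A FoxO motif, GTAAACA (3.17% of all windows), and an estrogen-related receptor half-site, AAGGTCA (4.08%), each matched 0 of these 9 genes on either strand, and the NRF1 motif (0.782% of all windows) matched in Opa1.

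At 5 weeks, 1 of the 10 genes differed between genotypes: Pink1 was lower in Col6a2-/- muscle. This share stands beside 25.4% of all 12817 genes called in the same comparison, of which most were higher in Col6a2-/- (23.2% of all genes) and 2.14% were lower. Of the called genes 91.6% were higher, a share that was 52.3% under median-of-ratios and 45.8% under quantile scaling. The members had a median difference of 0.02 on the log2(TPM + 1) scale and all tested genes one of 0.15. No member's 8 Col6a2-/- libraries lay wholly outside the range of the 8 WT libraries, where 1.3% of all genes did. Without both female Col6a2-/- libraries that stood apart, 2 members were called, Pink1 and Bnip3, both lower. Under median-of-ratios and under quantile scaling 3 members were lower, Pink1, Bnip3 and Bnip3l, and with no TPM filter or with the compared groups alone 0 were called by limma. The 25.4% and 2.14% of all genes belong to the fit as reported and cannot be set beside these counts.

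Pink1 in WT females at 5 weeks was 117, 118, 87.9 and 96.8 TPM, and in Col6a2-/- females 76.8, 100, 74.5 and 92.8 TPM. WT males had 99.6, 91.1, 73.8 and 83.4 TPM, and Col6a2-/- males 65.2, 56.9, 89.3 and 72.8 TPM. The ranges overlapped in both sexes, where 9.19% of all genes in females and 10.9% in males did not, and 7 of 8 Col6a2-/- libraries lay under the WT mean of their sex. The mean was 95.9 ± 15.5 TPM in WT and 78.6 ± 14.6 TPM in Col6a2-/- (SD, n = 8). Pink1 fell by 0.29 on the log2 scale (SE 0.1002, 95% interval -0.50 to -0.08, limma adjusted p = 0.0343), with differences of -0.28 in females and -0.30 in males. Relative to the median of all genes the difference was -0.44. The call was lost in 8 of 32 fits that left out 1 library, with limma adjusted p from 0.0605 to 0.0786 and differences from -0.24 to -0.28. Those libraries were replicates 1 and 2 of the WT females, WT males and Col6a2-/- males, and replicates 1 and 3 of the Col6a2-/- females, all at 5 weeks. It was also lost with no filter on TPM (limma adjusted p = 0.0556) and in a fit of the 5-week libraries alone (limma adjusted p = 0.0813), and median-of-ratios scaling moved the difference to -0.48.

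Bnip3, a receptor gene known as a target of hypoxia and FoxO signalling, was not called at 5 weeks. WT females had 71.5, 99.3, 63.2 and 69.7 TPM, and Col6a2-/- females 53.6, 60.8, 62.3 and 71.9 TPM. WT males had 68.8, 64.2, 57.1 and 58.4 TPM, and Col6a2-/- males 57.3, 53.2, 51.3 and 65.0 TPM. WT female replicate 2 was the highest of the 32 libraries, and the groups overlapped in both sexes. The difference was -0.20 (SE 0.0844, 95% interval -0.37 to -0.03, limma adjusted p = 0.0775), lower in 7 of 8 libraries. It passed the threshold without WT female replicate 3, Col6a2-/- female replicate 4 or Col6a2-/- male replicate 4 (limma adjusted p 0.0311 to 0.0429), and with median-of-ratios scaling (-0.39, limma adjusted p = 0.00613) or quantile normalization (-0.32, limma adjusted p = 0.00655).

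The other receptor genes did not pass the test at 5 weeks. Bnip3l had 11.5 ± 1.19 TPM in WT and 11.5 ± 1.49 TPM in Col6a2-/- (SD, n = 8), a log2 difference of -0.00 with a 95% interval of -0.17 to 0.17. Under median-of-ratios scaling its difference was -0.18 (limma adjusted p = 0.0224), and under quantile normalization -0.16 (limma adjusted p = 0.0289). Fundc1 had 11.7 ± 1.81 TPM in WT and 12.1 ± 2.22 TPM in Col6a2-/- (SD, n = 8). Its log2 difference of 0.04 had an interval of -0.16 to 0.24, and was -0.14 under median-of-ratios scaling (limma adjusted p = 0.157).

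Ppif in WT females at 5 weeks was 8.64, 7.06, 6.62 and 8.28 TPM, and in Col6a2-/- females 9.12, 7.87, 9.68 and 8.61 TPM. WT males had 10.6, 11.5, 8.37 and 8.14 TPM, and Col6a2-/- males 9.40, 11.4, 13.1 and 9.39 TPM. The genotypes overlapped in both sexes, with the highest value in Col6a2-/- male replicate 3. The log2 difference of 0.17 (SE 0.0945, 95% interval -0.03 to 0.36, limma adjusted p = 0.188) did not pass the test, was close to the median of all genes, and was -0.00 under median-of-ratios scaling.

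None of the fusion and fission genes passed the test at 5 weeks. Dnm1l, which encodes the fission GTPase DRP1, had 17.9 ± 3.84 TPM in WT and 20.1 ± 3.48 TPM in Col6a2-/- (SD, n = 8), a log2 difference of 0.16 (95% interval -0.02 to 0.34, limma adjusted p = 0.166). Mfn2, a mitofusin of the outer membrane, had a log2 difference of 0.07 (-0.11 to 0.24). Its paralogue Mfn1 had one of -0.05 (-0.26 to 0.16). Opa1, the inner membrane fusion GTPase, differed by 0.06 (-0.14 to 0.25) and Fis1, an outer membrane adaptor, by -0.06 (-0.26 to 0.14). These values moved with the scaling: under median-of-ratios they were -0.02 for Dnm1l, -0.12 for Mfn2, -0.23 for Mfn1, -0.13 for Opa1 and -0.25 for Fis1, none past the test (lowest limma adjusted p = 0.0582, for Fis1).

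**Figure D1:**
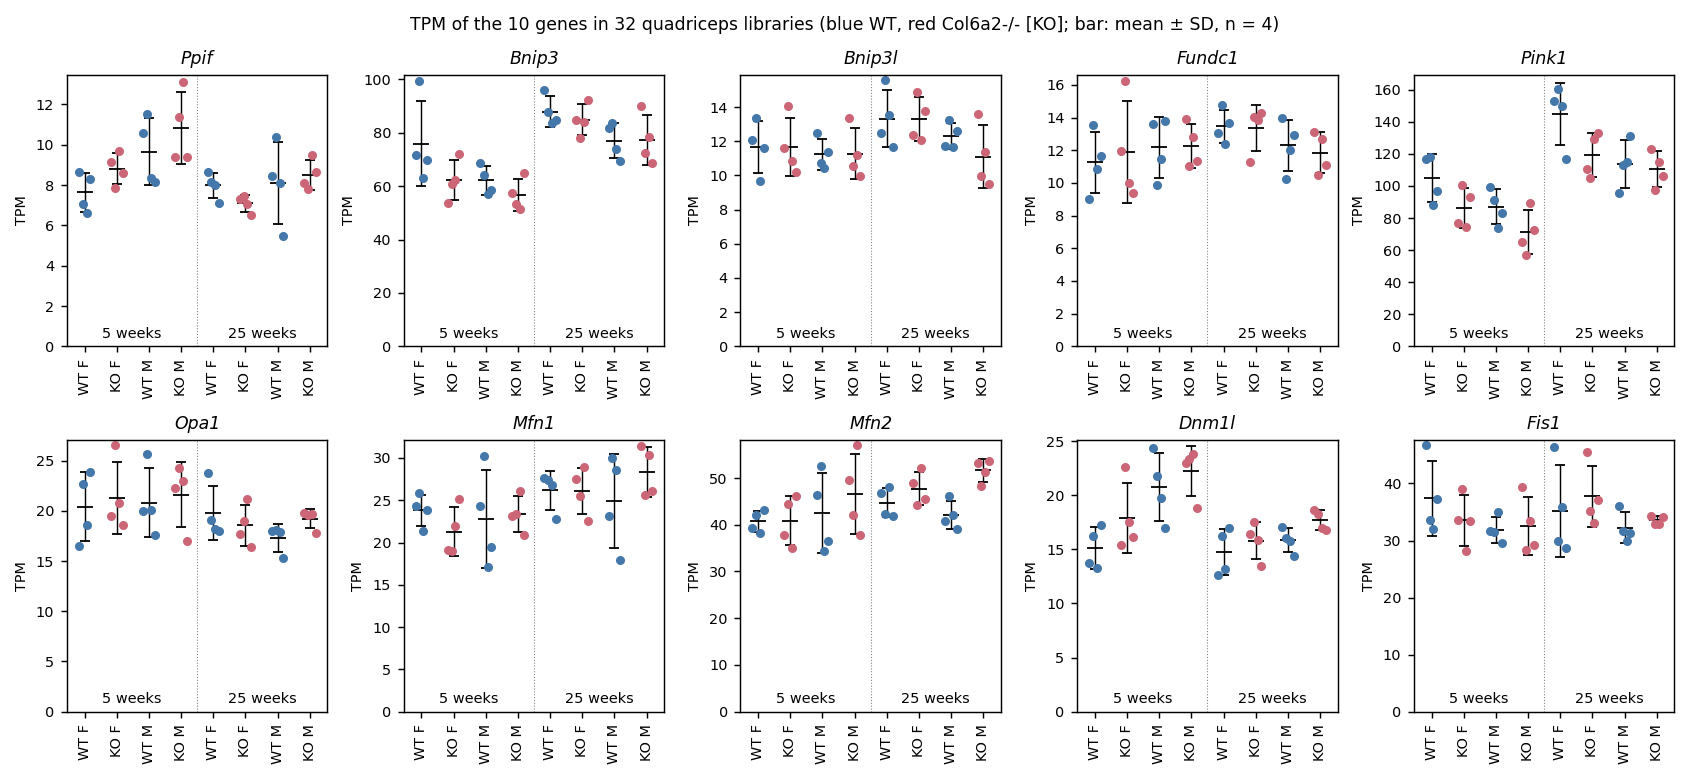
TPM of each of the 10 genes (vertical axes, from 0) in every library, by sex, genotype and age (horizontal axes), with WT in blue, Col6a2-/- in red and bars for the mean ± SD of 4 mice. Pink1 and Bnip3 sit higher at 25 than at 5 weeks, and Pink1 ranges from 56.9 to 160 TPM over all libraries.

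In the older mice limma called 0 of these 10 genes for genotype, and 4.7% of all genes (4.47% higher, 0.234% lower). Of the called genes 95.02% were higher, against 58.5% under median-of-ratios and 57.0% under quantile scaling. Across all genes 2469 had an unadjusted p under 0.05, and among the members the lowest adjusted p was 0.222, for Mfn2. The members' median log2 difference was 0.00 and that of all genes 0.08. No member separated the 8 WT from the 8 Col6a2-/- libraries, as 0.694% of all genes did.

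Mfn2 was 46.8, 42.2, 48.0 and 42.0 TPM in WT females at 25 weeks and 49.0, 44.2, 52.1 and 45.5 TPM in Col6a2-/- females. WT males had 40.7, 46.2, 42.1 and 39.2 TPM, and Col6a2-/- males 53.3, 48.4, 51.3 and 53.6 TPM. The males did not overlap, which held for 14.5% of all genes, and the females did (4.8% of all genes did not). Over both sexes the difference was 0.19 on the log2 scale (SE 0.0866, 95% interval 0.01 to 0.37, limma adjusted p = 0.222), higher in 7 of 8 libraries.

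Pink1 at 25 weeks was 153, 160, 150 and 117 TPM in WT females and 110, 105, 129 and 133 TPM in Col6a2-/- females. WT males had 95.4, 113, 115 and 131 TPM, and Col6a2-/- males 123, 97.6, 115 and 106 TPM. WT female replicate 4 lay within the Col6a2-/- range, and the males overlapped widely. The log2 difference of -0.16 (SE 0.1002, 95% interval -0.36 to 0.05, limma adjusted p = 0.407) did not pass the test, except under median-of-ratios scaling (-0.28, limma adjusted p = 0.0471). Bnip3l, at -0.07 in the comparison as reported (limma adjusted p = 0.675), also passed under that scaling (-0.19, limma adjusted p = 0.0346).

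Ppif had 8.05 ± 1.39 TPM in WT and 7.80 ± 0.944 TPM in Col6a2-/- at 25 weeks (SD, n = 8), a log2 difference of -0.03 with a 95% interval of -0.22 to 0.16. Bnip3 had 82.5 ± 8.12 TPM in WT and 81.0 ± 8.20 TPM in Col6a2-/-, a difference of -0.03 (-0.20 to 0.15). Dnm1l differed by 0.13 (-0.05 to 0.30) and Mfn1 by 0.10 (-0.11 to 0.31). Opa1, Fundc1 and Fis1 differed by 0.03, -0.03 and 0.09, in that order, each with an interval that spans 0.

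**Figure D2:**
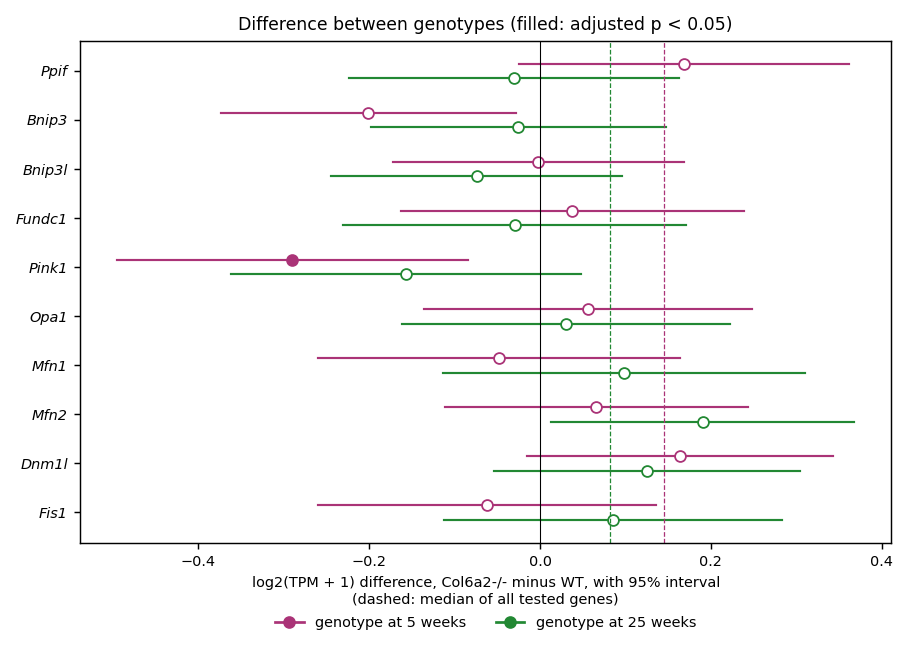
Log2(TPM + 1) difference of each gene, Col6a2-/- minus WT (horizontal axis), at 5 weeks (purple) and 25 weeks (green), with 95% intervals; filled points passed an adjusted p of 0.05 and dashed lines mark the median of all tested genes at each age. Only the Pink1 point at 5 weeks, at -0.29, is filled.

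Whether the genotype difference changed with age or sex was tested directly. For genotype by age, 0 of 10 members were called by limma (0.492% of all genes, with 898 genes at an unadjusted p under 0.05), and the lowest member adjusted p was 0.887, for Ppif. The change in the Pink1 difference from 5 to 25 weeks was 0.13 (95% interval -0.16 to 0.42) and that in the Ppif difference was -0.20 (-0.47 to 0.07). For genotype by sex, 0 of 10 were called (0.0156% of all genes, with 206 genes at an unadjusted p under 0.05) and all 10 had a limma adjusted p of 0.9998. Without both female libraries that stood apart, 0 members were called by limma for either interaction. The widest member difference by sex was that of Mfn1, 0.22 (95% interval -0.08 to 0.52).

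Ages were compared within each genotype. In WT muscle, 2 of 10 members were called between 5 and 25 weeks, against 19.8% of all genes, and both rose, as 4.47% of all genes did while 15.3% fell. The members' share of calls is thus that of all genes. The members' median log2 difference was 0.10 and that of all genes -0.08. The share of called genes that were higher was 22.6%, against 46.7% under median-of-ratios and 51.4% under quantile scaling. In Col6a2-/- muscle, 5 of 10 were called, against 34.2% of all genes: Pink1, Bnip3 and Mfn1 rose (5.41% of all genes) and Ppif and Dnm1l fell (28.8%). The members' median was 0.09 and that of all genes -0.14, and relative to the latter the differences were 0.69 for Pink1, 0.58 for Bnip3, 0.41 for Mfn1, -0.15 for Ppif and -0.10 for Dnm1l. The share of called genes that were higher was 15.8%, against 47.6% under median-of-ratios and 53.2% under quantile scaling. The members' own counts moved with the scaling: 7 rose and 0 fell under median-of-ratios, 6 and 0 under quantile scaling, and 2 and 0 after rescaling without mitochondrial and Rn7s genes. In WT 4 rose under median-of-ratios and 4 under quantile scaling. The shares of all genes above are those of the fit as reported, so these counts cannot be read against them. Over both sexes no member separated the 8 older from the 8 younger libraries of either genotype, as 3.0% of all genes did in WT and 2.68% in Col6a2-/-. Without both female Col6a2-/- libraries that stood apart, 5 members were again called, with Mfn2 higher (0.27, limma adjusted p = 0.0259) and Dnm1l no longer past the threshold (-0.18, limma adjusted p = 0.117). The comparison of ages in Col6a2-/- mice and that of genotypes at 5 weeks share the 5-week Col6a2-/- libraries, so they are not independent.

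Pink1 rose from 95.9 ± 15.5 to 129 ± 23.0 TPM in WT (SD, n = 8), by 0.42 on the log2 scale (SE 0.1002, 95% interval 0.22 to 0.63, limma adjusted p = 0.00333). In Col6a2-/- it rose from 78.6 ± 14.6 to 115 ± 12.6 TPM, by 0.56 (0.35 to 0.76, limma adjusted p = 9.94e-05). All 8 older libraries of each genotype lay above the younger mean of their sex. Within Col6a2-/- females and within Col6a2-/- males the 4 older and 4 younger libraries did not overlap, as held for 7.6% and 21.6% of all genes. Both calls held in all 32 fits that left out 1 library and under every other setting tried.

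Bnip3 rose from 69.0 ± 13.3 to 82.5 ± 8.12 TPM in WT (SD, n = 8), by 0.27 (SE 0.0844, 95% interval 0.09 to 0.44, limma adjusted p = 0.0241). At 25 weeks WT females had 96.0, 87.6, 83.5 and 84.6 TPM and WT males 81.7, 83.5, 73.7 and 69.5 TPM. WT males did not overlap between ages (34.4% of all genes), and WT females did (10.7% of all genes did not), with replicate 2 at 5 weeks at 99.3 TPM. The WT call was lost without replicate 3 or 4 of the 5-week females, replicate 3 of the 5-week males, replicate 1 of the 25-week females or replicate 2 of the 25-week males (0.23 to 0.25, limma adjusted p 0.0521 to 0.0648).

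In Col6a2-/- muscle, Bnip3 rose from 59.4 ± 6.96 to 81.0 ± 8.20 TPM (SD, n = 8), by 0.44 (SE 0.0844, 95% interval 0.27 to 0.62, limma adjusted p = 0.000194). At 25 weeks females had 84.9, 77.9, 84.1 and 92.2 TPM and males 89.8, 72.5, 78.4 and 68.5 TPM. The ages did not overlap within either sex (7.6% of all genes in females and 21.6% in males), and the call held in all 32 fits that left out 1 library.

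Ppif was called with age in Col6a2-/- muscle alone, where it fell from 9.82 ± 1.66 to 7.80 ± 0.944 TPM (SD, n = 8), by 0.29 on the log2 scale (SE 0.0945, limma adjusted p = 0.0184). At 25 weeks Col6a2-/- females had 7.33, 7.48, 7.04 and 6.51 TPM and males 8.09, 7.83, 9.50 and 8.64 TPM. All 8 lay under the younger mean of their sex, and the females did not overlap between ages, as held for 7.6% of all genes. In WT the difference was -0.09 (95% interval -0.29 to 0.10, limma adjusted p = 0.547), and the interaction given above did not pass the test, so a difference between the genotypes is not shown. The call was lost without Col6a2-/- male replicate 3 at 5 weeks (-0.25, limma adjusted p = 0.0526). It was also lost with median-of-ratios scaling (-0.13, limma adjusted p = 0.398), with quantile normalization (-0.14, limma adjusted p = 0.348) and after rescaling without mitochondrial and Rn7s genes (-0.24, limma adjusted p = 0.148).

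Dnm1l in Col6a2-/- muscle fell from 20.1 ± 3.48 to 16.8 ± 1.63 TPM (SD, n = 8), by 0.24 (SE 0.0874, limma adjusted p = 0.0369), and in WT its difference was -0.20 (limma adjusted p = 0.113). Col6a2-/- males had 23.0, 23.3, 23.8 and 18.9 TPM at 5 weeks and 18.6, 18.3, 17.0 and 16.8 TPM at 25 weeks. The males did not overlap, as held for 21.6% of all genes, and the females did (7.6% of all genes did not). The call was lost without any 1 of 8 Col6a2-/- libraries: replicate 2 of the 5-week females, replicate 1, 2 or 3 of the 5-week males, replicate 3 or 4 of the 25-week females, and replicate 3 or 4 of the 25-week males (-0.24 to -0.18, limma adjusted p 0.0526 to 0.104). It was also lost under 6 of 8 other settings, with -0.07 (limma adjusted p = 0.572) under median-of-ratios scaling.

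Mfn1 in Col6a2-/- muscle rose from 22.3 ± 2.62 to 27.2 ± 2.89 TPM (SD, n = 8), by 0.28 (SE 0.104, limma adjusted p = 0.0397), and in WT its difference was 0.13 (limma adjusted p = 0.424). Col6a2-/- females had 19.1, 19.0, 21.9 and 25.2 TPM at 5 weeks and 27.5, 25.5, 28.9 and 22.6 TPM at 25 weeks. Replicate 4 of each age fell in the range of the other, so the ages overlapped. The call was lost without any 1 of 10 Col6a2-/- libraries: replicates 1 and 2 of the 5-week females, 1, 2 and 4 of the 5-week males, 1, 2 and 3 of the 25-week females, and 1 and 3 of the 25-week males (0.25 to 0.28, limma adjusted p 0.0528 to 0.0816). It was also lost with no filter on TPM (limma adjusted p = 0.0649) and after rescaling without mitochondrial and Rn7s genes (0.35, limma adjusted p = 0.0530), and the difference was 0.45 under median-of-ratios scaling (limma adjusted p = 0.00497).

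Mfn2 had a log2 difference with age of 0.19 in Col6a2-/- (limma adjusted p = 0.0851) and 0.07 in WT (limma adjusted p = 0.635). The first passed the threshold without replicate 4 of the 5-week Col6a2-/- females (0.22, limma adjusted p = 0.0436) or replicate 3 of the males (0.24, limma adjusted p = 0.0321), and under median-of-ratios (0.37, limma adjusted p = 0.00147) and quantile scaling (0.31, limma adjusted p = 0.00334). Opa1 differed by -0.17 in Col6a2-/- and -0.14 in WT, and Fis1 by 0.11 and -0.04, none past the test. Under median-of-ratios scaling Fis1 passed in Col6a2-/- (0.28, limma adjusted p = 0.0218) and the Opa1 difference there was 0.00 (limma adjusted p = 0.972). Bnip3l and Fundc1 differed by 0.15 and 0.13 in WT and by 0.08 and 0.07 in Col6a2-/-, and these passed the threshold under median-of-ratios and quantile scaling, where the differences were 0.19 to 0.25. Bnip3l in WT also passed after rescaling without mitochondrial and Rn7s genes (0.29, limma adjusted p = 0.0394).

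**Figure D3:**
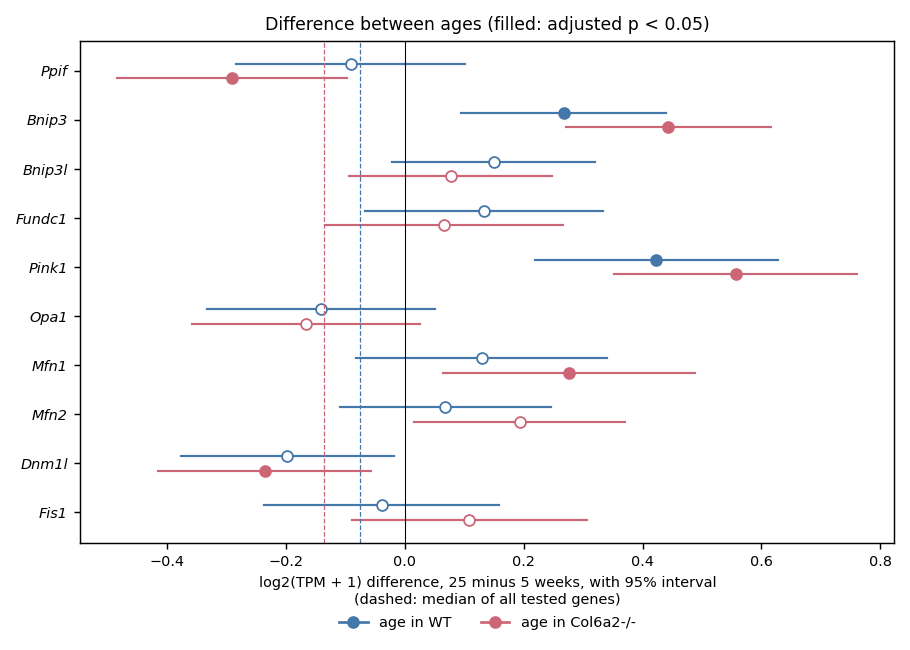
Log2(TPM + 1) difference of each gene, 25 minus 5 weeks (horizontal axis), in WT (blue) and Col6a2-/- (red), with 95% intervals; filled points passed an adjusted p of 0.05 and dashed lines mark the median of all tested genes. Pink1 and Bnip3 are filled in both genotypes, at 0.42 and 0.27 in WT and 0.56 and 0.44 in Col6a2-/-.

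Between the sexes, 2 of 10 members were called, against 3.05% of all genes: Dnm1l was higher and Pink1 lower in males (1.87% of all genes were higher and 1.18% lower). Of the called genes 61.4% were higher in males, and 84.0% after rescaling without mitochondrial and Rn7s genes. No member separated the sexes, as 0.0546% of all genes did. Dnm1l ran from 12.6 to 22.6 TPM (median 16.2) in the 16 female libraries and from 14.4 to 24.4 TPM (median 18.5) in the 16 male libraries. The sexes overlapped, with males higher than the matching female mean in 15 of 16 libraries. The difference was 0.25 (SE 0.0618, 95% interval 0.12 to 0.37, limma adjusted p = 0.0191) and held in all 32 fits that left out 1 library and under every other setting.

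Pink1 ran from 74.5 to 160 TPM (median 114) in females and from 56.9 to 131 TPM (median 96.5) in males. Males lay under the matching female mean in 14 of 16 libraries. The difference was -0.25 (SE 0.0709, 95% interval -0.40 to -0.11, limma adjusted p = 0.0473), and the call was lost in 20 of 32 fits that left out 1 library (-0.26 to -0.23, limma adjusted p 0.0505 to 0.0892). It was kept without any 1 of the other 12: at 5 weeks replicates 3 and 4 of the WT females, 1 of the WT males, 1 and 3 of the Col6a2-/- females, and 3 and 4 of the Col6a2-/- males, and at 25 weeks replicate 4 of the WT females, 4 of the WT males, 1 and 2 of the Col6a2-/- females, and 1 of the Col6a2-/- males. It was also lost with no filter on TPM (limma adjusted p = 0.0817), without mitochondrial and Rn7s genes (-0.19, limma adjusted p = 0.164), with replicate number as a block (limma adjusted p = 0.0707) and without both female libraries that stood apart (-0.21, limma adjusted p = 0.116). Ppif differed by 0.19 (limma adjusted p = 0.130), passing the threshold without WT male replicate 4 at 25 weeks (0.23, limma adjusted p = 0.0220), and Bnip3 by -0.18 (limma adjusted p = 0.110). Bnip3l, at -0.11 (limma adjusted p = 0.455), passed under quantile scaling (-0.13, limma adjusted p = 0.0388).

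Pink1 and Bnip3 levels went together over the 32 libraries (Pearson r = 0.82 on log2(TPM + 1)), and the correlation was 0.39 after the mean of each group was subtracted. Mfn1 and Mfn2 had r = 0.73, and 0.70 after group means were subtracted. Dnm1l and Pink1 had r = -0.60 over all libraries and 0.01 after that step. These are descriptions over 32 libraries that share group means, tissue composition and the scale of TPM.

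**Figure D4:**
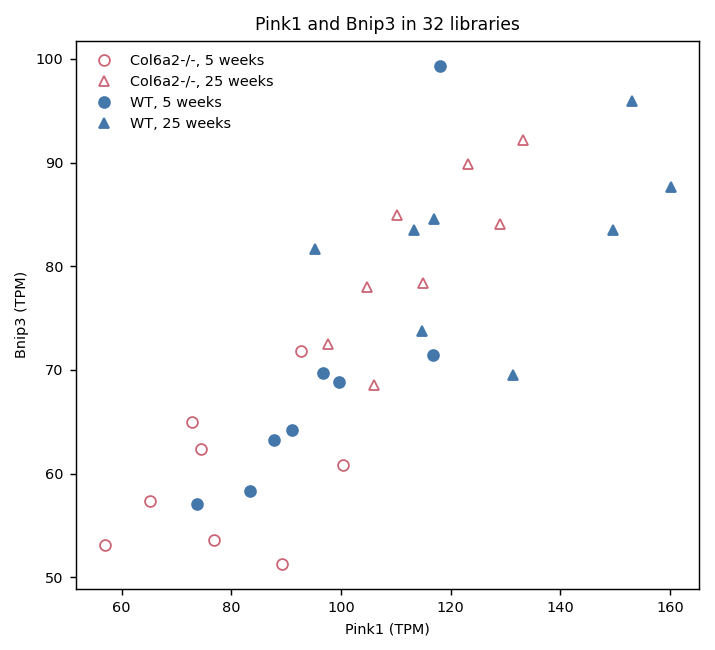
Bnip3 (vertical axis, TPM) against Pink1 (horizontal axis, TPM) in 32 libraries, with circles for 5 and triangles for 25 weeks, blue filled for WT and red open for Col6a2-/-. The 5-week Col6a2-/- libraries occupy the lower left, with Pink1 from 56.9 to 100 TPM and Bnip3 from 51.3 to 71.9 TPM. Some 5-week WT libraries lie in the same range, such as male replicates 3 (Pink1 73.8 and Bnip3 57.1 TPM) and 4 (83.4 and 58.4 TPM).

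Of all tested genes, the 2 most like Pink1 over the 32 libraries were Ndrg2 (r = 0.92) and Txlnb (r = 0.91). Those most like Bnip3 were the pseudogene AC156790.1 (r = 0.93) and Aldh6a1 (r = 0.90). Ppif was most like Cyc1 (r = 0.87), which encodes cytochrome c1 of complex III, and Pdhx (r = 0.84), which encodes a component of the pyruvate dehydrogenase complex. Bnip3l was most like Bnip3l-ps (r = 0.89) and Rnf130 (r = 0.83). Bnip3l-ps is the near copy named above, so reads divided between both loci may enter that correlation. Mfn1 was most like Tmem65 (r = 0.88) and Hspa9 (r = 0.87), Mfn2 like Ppm1b (r = 0.86) and Trak2 (r = 0.81), and Dnm1l like Mrps22 (r = 0.85) and Tmx2 (r = 0.84). Fundc1 was most like Tomm7 (r = 0.83) and Rpl30 (r = 0.81), and Opa1 like Mars2 (r = 0.78) and Ptcd3 (r = 0.78). Fis1 had no close match, with r = 0.63 for Cnnm3 and 0.59 for Ccpg1. After the mean of each group was subtracted, these correlations ran from 0.62 (Fis1 with Ccpg1) to 0.90 (Bnip3l with Bnip3l-ps). Some were then lower than over all libraries and some higher.

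Partners of these genes in the same processes were read from hand-written lists. Of 23 tested genes linked to the permeability transition pore, 6 rose and 2 fell in Col6a2-/- at 5 weeks (5 and 3 under median-of-ratios scaling), with a median of 0.06 beside 0.15 for all genes. In the same comparison 23.2% of all genes were higher and 2.14% lower. Slc25a5, an adenine nucleotide translocator, rose by 0.61 and Tspo, a cholesterol-binding protein of the outer membrane, by 0.997 (limma adjusted p = 1.35e-05 and 2.21e-05). The outer membrane channel genes Vdac1 and Vdac3 fell by 0.24 and 0.23 (limma adjusted p = 0.0196 and 0.0205), and both calls were lost after rescaling without mitochondrial and Rn7s genes and with the compared groups alone, under each of which 6 pore genes rose and 0 fell. Over the 8 alternatives the difference ran from -0.43 to -0.24 for Vdac1 and from -0.42 to -0.23 for Vdac3. Slc25a5 and Tspo also rose at 25 weeks, by 0.41 and 0.64 (limma adjusted p = 0.00833 and 0.0141), the 2 called genes of that list, of which Slc25a5 lost its call after rescaling without mitochondrial and Rn7s genes. At that age 4.47% of all genes were higher and 0.234% lower. Of 9 tested calcium uniporter genes, 5 rose and 0 fell at 5 weeks, or 4 and 1 under median-of-ratios scaling, beside 23.2% of all genes higher. Their median was 0.25, beside 0.15 for all genes. Those that rose included Mcub, a dominant-negative pore subunit, by 0.77 (limma adjusted p = 3.91e-05) and Slc8b1, the sodium-calcium exchanger, by 0.50 (limma adjusted p = 0.00105). At 25 weeks Mcub was the 1 called gene of these 9, beside 4.47% of all genes higher. It was higher by 0.48 (limma adjusted p = 0.0207), a call lost with no filter on TPM. Over the alternatives Mcub ran from 0.60 to 1.39 at 5 weeks and from 0.35 to 0.97 at 25 weeks, and Slc8b1 from 0.30 to 0.66 at 5 weeks.

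Of 31 tested mitophagy partners, 4 rose and 0 fell at 5 weeks, beside 23.2% of all genes higher in that comparison, and their median of 0.13 stands beside 0.15 for all genes. They included the autophagosome genes Map1lc3a and Gabarapl1, higher by 0.45 and 0.39 (limma adjusted p = 0.000258 and 0.00363), the latter not called under median-of-ratios scaling. Under median-of-ratios scaling 1 rose and 5 fell, so the direction of that list turned with the scaling. Of 17 tested partners of fusion and fission, 3 rose and 0 fell (median 0.13), with Spire1 higher by 0.35 and Msto1 by 0.29 (limma adjusted p = 0.00390 and 0.0228), and under median-of-ratios scaling 1 rose and 1 fell. Msto1 lost its call under median-of-ratios and quantile scaling and with the compared groups alone. Over the alternatives Spire1 ran from 0.15 to 0.47, Msto1 from 0.10 to 0.41, Map1lc3a from 0.26 to 0.47 and Gabarapl1 from 0.21 to 0.42. Without both female Col6a2-/- libraries that stood apart, 6 pore genes rose and 2 fell at 5 weeks, 5 uniporter genes rose and 0 fell, 4 mitophagy partners rose and 1 fell, and 2 fusion and fission partners rose and 1 fell. At 25 weeks 0 genes of either list were called by limma, whereas median-of-ratios scaling called 3 of the mitophagy partners and 1 of the fusion and fission partners, all lower.

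With age in WT, 5 mitophagy partners rose and 1 fell, beside 4.47% of all genes higher and 15.3% lower, and under median-of-ratios scaling 11 rose and 1 fell. Gabarapl1 rose by 0.75 and Fbxl4, which restrains mitophagy through BNIP3 and NIX, by 0.41 (limma adjusted p = 1.30e-06 and 0.00815), and Map1lc3a fell by 0.34 (limma adjusted p = 0.00429), which was lost after rescaling without mitochondrial and Rn7s genes (-0.35 to -0.21 over the alternatives). In Col6a2-/- 4 rose and 4 fell (5.41% and 28.8% of all genes), against 14 and 1 under median-of-ratios scaling. Of the pore genes, 1 rose and 5 fell with age in WT, and 2 rose and 8 fell in Col6a2-/- (2 and 3, and 5 and 6, under median-of-ratios scaling). Slc25a5 fell in both, by 0.58 and 0.78 (limma adjusted p = 2.79e-05 and 1.47e-07), and the hexokinase gene Hk2 rose in both, by 0.42 and 0.56 (limma adjusted p = 0.00638 and 0.000288). Of 9 calcium uniporter genes, 0 were called with age in WT by limma and 4 fell in Col6a2-/-, where 1 rose and 1 fell under median-of-ratios scaling. Of the fusion and fission partners, 1 rose in WT, and 1 rose and 3 fell in Col6a2-/-, against 2 and 1 under median-of-ratios scaling. Gdap1, a fission factor of the outer membrane, rose by 0.75 in WT and 0.78 in Col6a2-/- (limma adjusted p = 0.00371 and 0.00150), the latter reaching 1.17 under other settings. Without both libraries that stood apart, the counts with age in Col6a2-/- were 6 higher and 3 lower for mitophagy partners, 3 and 6 for pore genes, 0 and 1 for uniporter genes, and 1 and 3 for fusion and fission partners.

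Markers of other cell types moved with genotype in the same libraries. All 12 macrophage markers were higher in Col6a2-/- at 5 weeks (median 1.22), and their summed level was 77.9 to 131 TPM in WT and 118 to 414 TPM in Col6a2-/-. At 25 weeks 9 of 12 were higher, with sums of 52.4 to 139 TPM in WT and 132 to 243 TPM in Col6a2-/-. Of 10 fibroblast markers 6 were higher at 5 weeks and 5 at 25 weeks, and of 10 endothelial markers 4 and 0. Of all genes 23.2% were higher at 5 weeks and 4.47% at 25 weeks. The endothelial median at 5 weeks was 0.20, beside 0.15 for all genes. Under median-of-ratios scaling the counts at 5 weeks were 11 macrophage, 3 fibroblast and 0 endothelial markers, all higher. Of 17 fibre markers 4 were lower and 0 higher at 5 weeks, beside 2.14% of all genes lower. Their sums were 35775 to 46530 TPM in WT and 28549 to 44958 TPM in Col6a2-/-, and at 25 weeks 0 were called by limma. Under median-of-ratios scaling 8 of the 17 were lower at 5 weeks and 5 at 25 weeks. The 2.14% of all genes belongs to the fit as reported and not to that scaling. With age in Col6a2-/- 11 of 12 macrophage markers and 6 of 6 Schwann cell markers fell, and in WT 1 and 3 did. Of all genes 28.8% fell with age in Col6a2-/- and 15.3% in WT. The WT macrophage count was 5 of 11 with the compared groups alone and 4 of 12 without both female Col6a2-/- libraries that stood apart. Under median-of-ratios and under quantile scaling 10 macrophage and 4 Schwann cell markers fell in Col6a2-/-. Of 10 fibroblast markers 5 fell with age in each genotype (median -0.52 in WT and -0.45 in Col6a2-/-), their sum going from 812 to 2177 TPM at 5 weeks to 305 to 580 TPM at 25 weeks in WT, and from 703 to 2573 TPM to 536 to 879 TPM in Col6a2-/-. Of 10 endothelial markers 2 fell with age in WT and 4 in Col6a2-/-, and of 17 fibre markers 2 fell in each. No adipocyte (9 tested), erythroid (6 tested) or Schwann cell (6 tested) marker was called between genotypes at either age by limma with all libraries. Without both female Col6a2-/- libraries that stood apart, 2 adipocyte markers were higher at 5 weeks, where the median of that list went from 0.41 to 0.87, and the counts of the other lists at 5 weeks were 12 macrophage, 4 fibroblast and 4 endothelial markers higher and 5 fibre markers lower. The falls with age in Col6a2-/- were then again 11 macrophage and 6 Schwann cell markers, with 5 fibroblast, 5 endothelial and 2 fibre markers. The part of these cell types in the results of the members, the pore genes and the other lists was not tested.

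**Figure D5:**
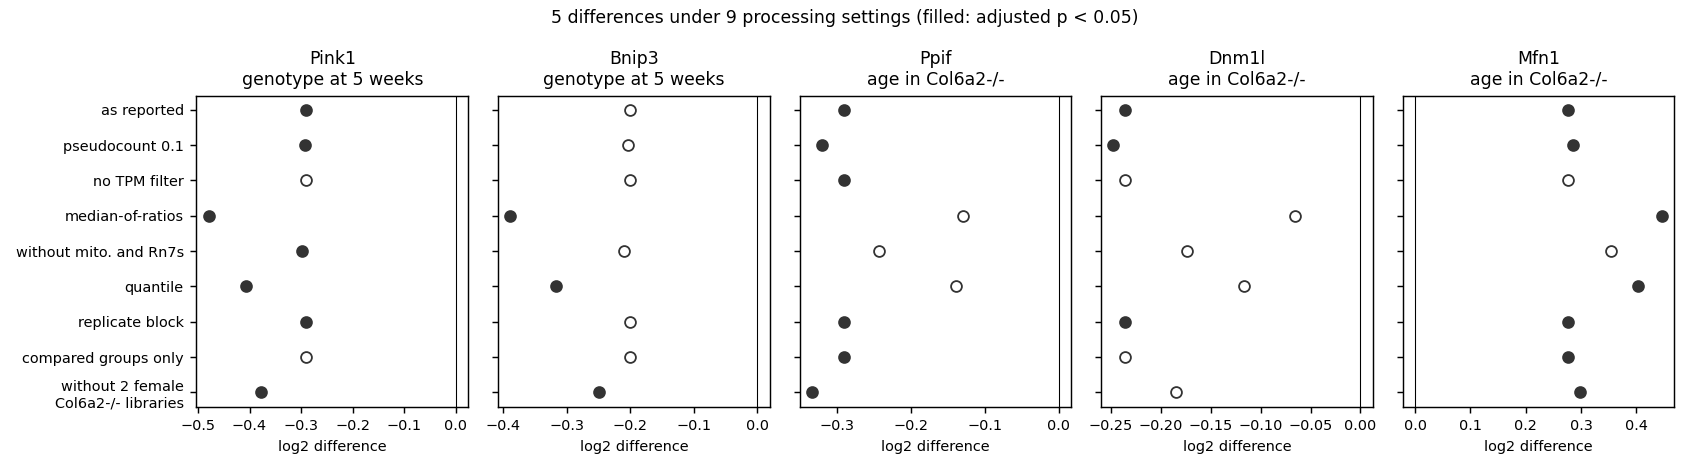
Log2 difference (horizontal axes) of 5 member results under the reported processing and 8 alternatives (rows); filled points had an adjusted p under 0.05. At 5 weeks the Pink1 point is open with no TPM filter and with the compared groups alone, the Bnip3 point is filled in 3 of the 8 alternatives and open as reported, and the Dnm1l difference with age ranges from -0.25 to -0.07.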

How the data were processed

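RNA of quadriceps muscle from 32 mice (8 groups of 4) was sequenced as 150 bp paired reads from TruSeq libraries made with 150 ng of RNA of RIN 8 or above, per the labels. TPM and FPKM values and a coverage signal per gene were computed by the authors, per the file headers, and TPM was summed per gene ID here. The submitters' processing notes name FastQC, MultiQC, Trimmomatic, HISAT2, SAMtools, StringTie and the build GRCm38 (mm10). Tool versions, the annotation file and whether counting was strand-aware are not given in the sources used here, and no read counts were used. FPKM and coverage served to infer relative depth, and since that inference rests on how the authors defined both, precision is given by the spread between mice.

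The 12817 genes that reached 1 TPM in 4 or more libraries were tested as log2(TPM + 1), a scale that understates changes of low genes, with limma 3.58.1 in R 4.3.3: a mean per group over all 32 libraries, eBayes with a trend, sexes weighted equally, two-sided, Benjamini-Hochberg over all genes, called under 0.05. Genotypes were compared within each age, with interactions for age and for sex, ages within each genotype, and sexes over all groups. P-values measure the spread between mice, which the labels give as separate animals. The procedure was run on simulated data, of which no result is given here, so that run adds no support. Col6a2 was compared by an exact permutation test (scipy 1.17.1). Further software was the R package data.table (1.17.8), numpy 2.4.6 under Python 3.11.15, pandas 2.3.3, and matplotlib 3.10.9 for plots.

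The members, the 18 hand-written lists (pore, calcium uniporter, mitophagy, fusion and fission, cyclophilins, biogenesis, protein quality control, cristae, respiratory chain, FoxO targets, hypoxia targets, and markers of fibres, macrophages, fibroblasts, adipocytes, endothelium, erythrocytes and Schwann cells) and the tests were chosen with earlier results of these data known. All 10 members are named. From each list, up to 2 called genes a direction with the smallest adjusted p could be named. The 2 genes most like each member were those of highest Pearson r. Alternatives were a pseudocount of 0.1, no TPM filter, median-of-ratios and quantile scaling, rescaling without mitochondrial and Rn7s genes, the compared groups alone, a replicate block, each library left out, and, chosen after seeing the data, both 5-week Col6a2-/- females that stood apart left out. Shares of all genes called, higher or lower are those of the fit as reported, also where counts under an alternative stand near them. No 2 libraries held identical values.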

Additional observations from a re-analysis of the deposited data

Results flagged for a closer look

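Within 5 of 80 combinations of gene and group, the lowest library lay far from its 3 group mates by Dixon's test at the 95% level, and chance flags about 1 in 20 groups. Fundc1 was 11.3 TPM in replicate 1 of the 25-week Col6a2-/- females, against 13.8 to 14.3 TPM in the others. Opa1 was 15.3 TPM in replicate 4 of the 25-week WT males, against 17.9 to 18.1 TPM, and 17.8 TPM in replicate 4 of the 25-week Col6a2-/- males, against 19.6 to 19.8 TPM. Mfn1 was 22.8 TPM in replicate 4 of the 25-week WT females, against 26.8 to 27.7 TPM. Dnm1l was 18.9 TPM in replicate 4 of the 5-week Col6a2-/- males, against 23.0 to 23.8 TPM. No member was called for genotype by age or genotype by sex by limma.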

How the results depend on the processing

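Over 8 alternatives that leave out no single library, 457 member differences kept their direction and their side of the threshold, 21 gained a call and 17 lost one, and 35 that were called under neither setting changed sign. The count of called genes for genotype at 5 weeks (3253) was 1878 with the compared groups alone. For genotype at 25 weeks (603) it was 343 with no TPM filter, 1282 with median-of-ratios scaling, 1087 with the compared groups alone and 1233 without both 5-week Col6a2-/- females. For genotype by age (63) it was 115 with no filter, 132 with median-of-ratios scaling, 103 without mitochondrial and Rn7s genes, 163 with quantile scaling and 135 without both females. For genotype by sex (2) it was 5 with no filter and 1 without both females. For sex (391) it was 822 with median-of-ratios scaling, 661 without mitochondrial and Rn7s genes and 828 with quantile scaling. The cause was not tested. Fits that left out 1 library gave 2207 to 4749 for genotype at 5 weeks, 270 to 983 at 25 weeks, 49 to 229 by age, 2 to 3 by sex, 2114 to 3004 for age in WT, 3464 to 5506 for age in Col6a2-/- and 327 to 693 for sex.

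With replicate number as a block the counts were 3293, 658, 66 and 2 for the 4 genotype comparisons, 2587 and 4416 for age in WT and Col6a2-/-, and 385 for sex, and of the members' calls it changed that of Pink1 by sex alone. Deviations from group means correlated at a mean of 0.03 over 112 pairs with the same number and -0.01 over 336 pairs with different numbers. Values above 0.1 were found in 35 of the 112 and in 65 of the 336 pairs. Deviations cancel within each group, which ties the second mean to the first. Whether equal numbers pair the mice is therefore not settled by these values.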

Other observations

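Genes around the members followed several patterns not described above. Of 17 tested FoxO targets, 7 rose and 0 fell in Col6a2-/- at 5 weeks (median 0.22, beside 0.15 for all genes), or 4 and 1 under median-of-ratios scaling (median 0.07), led by the cell cycle inhibitor gene Cdkn1a, higher by 1.98 (SE 0.213, limma adjusted p = 1.10e-07), and the muscle ubiquitin ligase gene Fbxo32, higher by 0.97 (SE 0.144, limma adjusted p = 1.52e-05). In that comparison 23.2% of all genes were higher and 2.14% lower. At 25 weeks 0 of 17 were called by limma, beside 4.47% of all genes higher and 0.234% lower. Both genes were called for genotype by age, Cdkn1a at -1.53 and Fbxo32 at -1.13 (limma adjusted p = 0.00801 and 0.00291), in which 0 genes of the other lists were called by limma. Without both female Col6a2-/- libraries that stood apart, 2 FoxO targets were again lower for genotype by age, and 1 adipocyte marker was called, also lower. With age in WT 4 FoxO targets rose and 0 fell, and in Col6a2-/- 2 rose and 7 fell, or 5 and 2 under median-of-ratios scaling, which turns the direction. Of all genes 4.47% rose and 15.3% fell with age in WT, and 5.41% rose and 28.8% fell in Col6a2-/-. Of 18 hypoxia targets, 2 rose and 0 fell at 5 weeks, with the glycolytic gene Eno1 higher by 0.57 (limma adjusted p = 0.00259), and 2 rose and 0 fell at 25 weeks, Eno1 by 0.48 and Egln3 by 0.64 (limma adjusted p = 0.0330 and 0.0299). The 25-week calls were lost with no TPM filter and after rescaling without mitochondrial and Rn7s genes, and that of Egln3 also under both other scalings and with the compared groups alone. Under median-of-ratios scaling 2 rose and 4 fell at 5 weeks. With age 5 fell in WT, and 2 rose and 4 fell in Col6a2-/-.

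Of the 13 tested cyclophilins other than Ppif, 4 rose and 0 fell at 5 weeks, with the endoplasmic reticulum cyclophilin gene Ppib higher by 0.49 and the cytosolic Ppia by 0.42 (limma adjusted p = 0.00652 and 0.0197). In that comparison 23.2% of all genes were higher and 2.14% lower, and the list median of 0.17 stands beside 0.15 for all genes. Under median-of-ratios scaling 1 rose and 1 fell, and Ppia was not called there or with the compared groups alone. Over the alternatives Ppib ran from 0.30 to 0.53 and Ppia from 0.23 to 0.45 at 5 weeks. Ppib was the 1 cyclophilin called at 25 weeks, beside 4.47% of all genes higher. It was higher by 0.44 (limma adjusted p = 0.0424), a call lost with no filter on TPM and after rescaling without mitochondrial and Rn7s genes. With age 2 cyclophilins fell in WT and 4 in Col6a2-/-, beside 15.3% and 28.8% of all genes. Ppic was lower in both (log2 differences of -1.17 and -1.40, limma adjusted p = 5.22e-07 and 1.14e-08). Of 18 biogenesis genes 0 were called between genotypes at either age by limma, and 4 were lower at 5 weeks under median-of-ratios scaling. With age 3 rose and 1 fell in WT and 4 rose and 1 fell in Col6a2-/-, beside 4.47% and 5.41% of all genes higher. Under median-of-ratios scaling 6 rose and 0 fell in WT, and 8 rose and 1 fell in Col6a2-/-. The estrogen-related receptor gene Esrrb was higher by 0.61 and 0.47 (limma adjusted p = 0.000214 and 0.00158), and by up to 1.27 and 1.001 under other settings. Of 38 respiratory chain and citrate cycle genes, Cox6a2 was the 1 called at 5 weeks (-0.22, limma adjusted p = 0.0143), whereas 6 were lower under median-of-ratios and 6 under quantile scaling, and 0 were called by limma after rescaling without mitochondrial and Rn7s genes or with the compared groups alone. At 25 weeks 0 were called. Of 17 genes of protein quality control 2 rose at 5 weeks, whereas 4 fell under median-of-ratios scaling, and of 10 cristae genes 1 rose and 1 fell. At 25 weeks 0 of either list were called by limma. Without both female Col6a2-/- libraries that stood apart, the counts at 5 weeks were 6 higher and 1 lower for FoxO targets, 3 and 0 for hypoxia targets, 3 and 0 for cyclophilins, 0 and 1 for biogenesis, 0 and 1 for the respiratory chain, 0 and 0 for protein quality control, and 1 and 1 for cristae genes. With age in Col6a2-/- they were 3 and 4 for FoxO targets, 2 and 4 for hypoxia targets, 0 and 4 for cyclophilins, and 4 and 1 for biogenesis.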
